A study of Mus musculus with 6 samples.

Results

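The CC chemokine genes Ccl2, Ccl3, Ccl4, Ccl5, Ccl6, Ccl7, Ccl8, Ccl9, Ccl12 and Ccl24 were followed in macrophages of mouse white adipose tissue. They are 10 of the 57180 gene rows of the deposited count table, found by matching each Ensembl mouse ID to its symbol, and all 10 passed the filter on low counts. RNA was sequenced from macrophages labelled wild type (WT) in 2 groups of 3 libraries each. One group was fed a high-fat diet alone (HFD), and the other was fed the same diet and treated with magnesium isoglycyrrhizinate (HFD+MGIG), a magnesium salt of a glycyrrhizic acid isomer. The comparison asks how these macrophages differ with the treatment. The high-fat diet is shared by both groups, and no lean or untreated-diet group was analysed here. The series' design text names a sort for F4/80 and CD11b. The labels give no age, sex, dose, duration or batch, and do not say whether the libraries came from separate animals, so the p-values measure the spread between these libraries.

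CC chemokines are small secreted proteins named for a pair of adjacent cysteines near the start of the mature protein. They bind G protein-coupled receptors on leukocytes and draw those cells along a gradient, and in obese adipose tissue they are known for recruiting monocytes and for the build-up of macrophages. Ccl2, Ccl7 and Ccl12 act on monocytes mainly through Ccr2, Ccl3, Ccl5 and mouse Ccl6 and Ccl9 can act through Ccr1, mouse Ccl8 through Ccr8, and Ccl24 draws eosinophils through Ccr3.

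The cysteine pair is visible in the coding sequences of the members. For 9 of them, stretches of 36 bases around it, from the GENCODE M21 transcripts of the mm10 build, are given to show what the genes share and where close relatives differ. The capitals mark the codons of the adjacent cysteines.
Ccl2: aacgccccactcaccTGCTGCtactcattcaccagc
Ccl7: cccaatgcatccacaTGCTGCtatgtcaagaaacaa
Ccl12: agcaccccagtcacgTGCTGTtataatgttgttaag
Ccl8: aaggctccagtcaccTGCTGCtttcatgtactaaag
Ccl4: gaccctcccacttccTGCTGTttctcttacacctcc
Ccl5: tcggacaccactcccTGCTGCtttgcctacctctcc
Ccl6: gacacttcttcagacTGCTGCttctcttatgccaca
Ccl9: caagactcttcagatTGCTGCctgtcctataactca
Ccl24: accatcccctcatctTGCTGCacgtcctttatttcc

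The pair begins at codon 50 in Ccl6, at codon 57 in Ccl9 and at codon 32 to 34 in the other members shown. Ccl4 and Ccl12 spell the second cysteine TGT, and the rest of those shown spell it TGC. Ccl24 has 2 adjacent pairs, of which the later one is shown. Over their whole coding sequences, Ccl8 and Ccl12 were the most alike of the 45 pairs, with 71.03% identical aligned bases, followed by Ccl6 and Ccl9 with 70.43%. Ccl3 and Ccl4 had 67.39%, and Ccl2 and Ccl7 had 63.27%. The longest exact run that any 2 member transcripts had in common was 25 bases, between Ccl6 and Ccl9. No member's exons overlapped those of another annotated gene. The deposited counts of Ccl3 and Ccl9 were fractional in 6 of 6 libraries, and those of the other 8 members were whole, so the counts of Ccl3 and Ccl9 are the ones the authors' counting may have split.

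The libraries of the 2 groups differed in depth and in background. Total counts were 14437531 to 16740374 in HFD, against 2214367 to 4904167 in HFD+MGIG. Genes of families that macrophages are not known to transcribe, which were olfactory, vomeronasal and taste receptors, keratin-associated proteins and beta-defensins, held 0.0624% to 0.280% of the counts in HFD, against 2.93% to 6.42% in HFD+MGIG. Both the highest of these shares and the lowest total were in HFD+MGIG 2, which was also the library with the lowest CPM (counts scaled to a common library total) for 8 of the 10 members. All 15 macrophage markers, among them Adgre1, which encodes F4/80, and Itgam, which encodes CD11b, were detected in every library. Depth and background moved with the treatment label and cannot be told apart from it.

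Because of that background, each member was set against a bound, which was the 90th percentile of the level per kilobase (kb) of exon in the silent families of the same library, multiplied by the member's exon length. All 10 members lay above their bound in every library. Ccl6 had the widest margin, with a mean in HFD+MGIG 236 times its bound, and Ccl5 the narrowest, with 4.16 times and 2.11 times in its lowest library. Ccl12 and Ccl24 came next, at 2.77 and 3.63 times the bound in their lowest libraries. Fold changes were fitted on 2 scales. The first fit held all 23053 genes that passed the filter, with the libraries scaled over those genes. The second held only the 2606 protein-coding genes whose bound was at most 0.25 of their mean level, here called background-limited genes. Bound and level were means over all 6 libraries, so a gene high in HFD could enter with a treated level near its bound. The libraries were scaled over these genes, and all 10 members were among them.

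Per kb of exon, the members spanned a wide range of levels, and their rank order was the same in the means of both groups. Ccl6 stood first with 1295 ± 100 CPM per kb in HFD (SD, n = 3) and 1511 ± 515 in HFD+MGIG. Next came Ccl8, Ccl4, Ccl7, Ccl2 and Ccl9, with means between 386 and 795 CPM per kb in HFD and between 331 and 883 in HFD+MGIG. Ccl3 followed at 229 ± 24.1 CPM per kb in HFD, then Ccl24 at 98.6 ± 4.30, Ccl12 at 45.4 ± 13.4 and Ccl5 at 25.7 ± 2.92. In the HFD libraries the ranges of neighbours in this order overlapped for Ccl8 and Ccl4, Ccl4 and Ccl7, Ccl7 and Ccl2, and Ccl2 and Ccl9. These HFD ranges did not overlap for Ccl6 and Ccl8 or for any neighbours from Ccl9 downwards. Within libraries, Ccl6 was above Ccl8 in 6 of 6, Ccl8 above Ccl4 in 5, Ccl4 above Ccl7 in 4, Ccl7 above Ccl2 in 6 and Ccl2 above Ccl9 in 3. Further down, Ccl9 was above Ccl3 in 4 of 6, the 3 HFD libraries among them. Ccl3 was above Ccl24 in 6, Ccl24 above Ccl12 in 6 and Ccl12 above Ccl5 in 5. The order of Ccl7 over Ccl2 thus held in every library although their ranges overlapped, and Ccl2 and Ccl9 had no steady order. The 10 genes together held 0.530%, 0.536% and 0.590% of all counts in the HFD libraries and 0.703%, 0.359% and 0.675% in the HFD+MGIG libraries. The groups overlapped, with HFD+MGIG 2 below the HFD libraries and the other two above them. For each single member the CPM groups overlapped too, whereas 23.7% of all filtered genes were lower without overlap in HFD+MGIG and 48.9% higher, and of the background-limited genes 68% were lower and 2.8% higher. In bulk RNA, fewer cells of a type and less RNA per cell cannot be told apart.

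**Figure D1:**
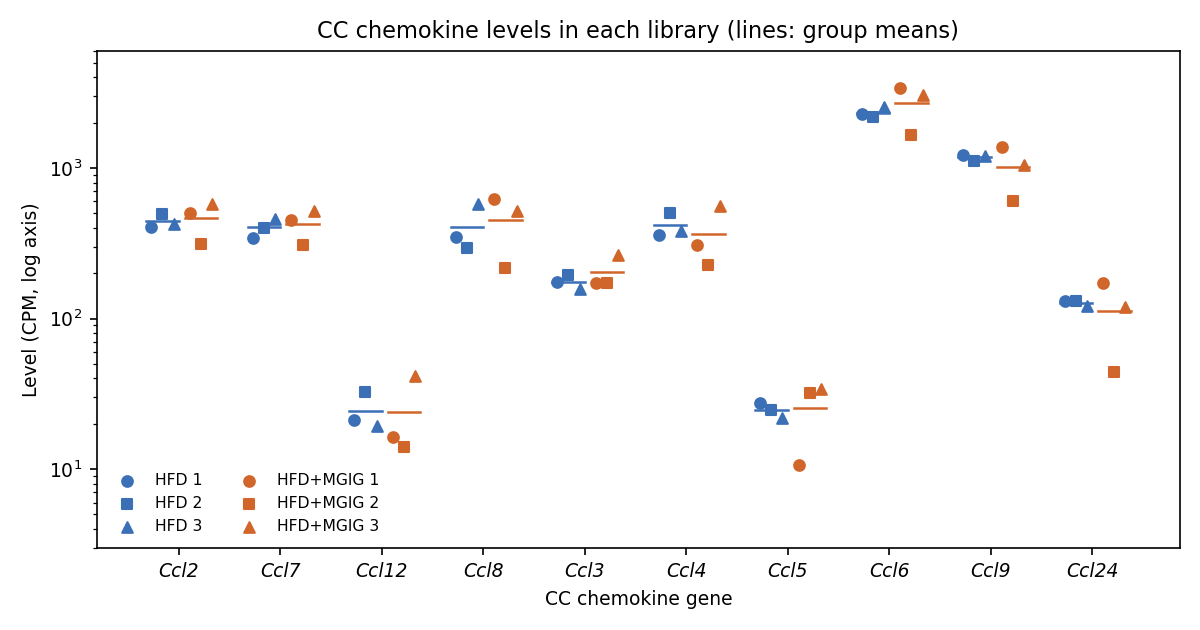
Level of each of the 10 CC chemokine genes in CPM (log axis), with 1 point per library and a line at the group mean, for HFD and HFD+MGIG. The groups overlap for all 10 genes, and Ccl6 lies between 1663 and 3409 CPM while Ccl5 and Ccl12 reach at most 41.8 CPM.

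Of the monocyte attractants of the Ccl2 group, Ccl2 and Ccl7 were well above background, at 29.1 and 41.1 times their bounds in their lowest libraries. Ccl12 was well below these relatives in level, and at 2.77 times its bound in its lowest library. Ccl2 (ENSMUSG00000035385, chr11:82035571-82037453, plus strand, mm10), the main attractant of Ccr2-bearing monocytes, had 408, 496 and 427 CPM in the HFD libraries and 500, 312 and 579 CPM in the treated ones. The HFD values lay inside the HFD+MGIG range, so the groups overlapped. Its log2 fold change (HFD+MGIG over HFD) was -0.23 (SE 0.462, adjusted p = 0.667, edgeR) over all filtered genes, and was 0.75 (SE 0.155, adjusted p = 0.0199) over the background-limited genes. Ccl2 therefore rose on the second scale and did not pass the test on the first.

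Ccl7 (ENSMUSG00000035373, chr11:82045712-82047525, plus strand), which lies next to Ccl2 and acts through Ccr2 as well, had 345, 401 and 461 CPM in HFD. In HFD+MGIG it had 452, 310 and 520 CPM, again a range that held every HFD value. On the log2 scale the fold change was -0.21 (SE 0.451, adjusted p = 0.688) over all filtered genes, and was 0.79 (SE 0.170, adjusted p = 0.0228) over the background-limited genes, a pattern like that of Ccl2. The ratio of Ccl2 to Ccl7, per kb, was 0.785 ± 0.117 in HFD and 0.756 ± 0.0419 in HFD+MGIG (n = 3 each, two-sided exact permutation p = 0.8).

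Ccl12 (ENSMUSG00000035352, chr11:82101845-82103400, plus strand), a mouse gene often called MCP-5, had 21.1, 32.6 and 19.4 CPM in HFD. Its levels in HFD+MGIG were 16.4, 14.0 and 41.8 CPM, so the extremes of both directions lay in the treated group. Its change on the log2 scale was -0.31 over all filtered genes (SE 0.429, adjusted p = 0.539) and 0.68 over the background-limited genes (SE 0.382, adjusted p = 0.306), with a 95% interval from -0.20 to 1.56 on the second scale. The counts behind it were 31 to 205 in HFD+MGIG. Without HFD+MGIG 3, the library with the highest level, the change over all filtered genes was -0.93 (adjusted p = 0.0653).

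Ccl8 (ENSMUSG00000009185, chr11:82115185-82116799, plus strand), a chemokine of tissue-resident macrophages that in the mouse acts through Ccr8, had 350, 293 and 576 CPM in the HFD libraries and 619, 216 and 519 CPM in the treated ones. Relative to their mean, its HFD libraries were spread more widely than those of any other member, and its groups overlapped. In log2 terms the change was -0.11 (SE 0.534, adjusted p = 0.862) over all filtered genes, and was 0.77 (SE 0.268, adjusted p = 0.111) over the background-limited genes. Ccl8 and Ccl12, the closest pair by coding sequence, had a ratio that varied widely within both groups, with Ccl8 at 19.4 ± 11 times the level of Ccl12 per kb in HFD and 23.0 ± 14.5 times in HFD+MGIG (n = 3 each, two-sided exact permutation p = 0.8).

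Ccl3, Ccl4 and Ccl5, attractants of monocytes and T cells, showed no called change over all filtered genes, and Ccl3 rose over the background-limited genes. Ccl3 (ENSMUSG00000000982, chr11:83647844-83649355, minus strand), known as MIP-1 alpha, had 175, 194 and 157 CPM in HFD. HFD+MGIG 1 and HFD+MGIG 2 both had 172 CPM, inside the HFD range, and HFD+MGIG 3 stood above all others with 265 CPM. The log2 fold change was -0.098 (SE 0.396, adjusted p = 0.834) over all filtered genes, and was 0.96 (SE 0.232, adjusted p = 0.0342) over the background-limited genes, with a 95% interval from 0.43 to 1.49.

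Ccl4 (ENSMUSG00000018930, chr11:83662584-83664683, plus strand), known as MIP-1 beta, had 361, 505 and 382 CPM in the HFD libraries and 309, 226 and 556 CPM in the treated ones. Here 2 of the 3 treated libraries were below every HFD library and the third was above them. Its log2 fold change was -0.50 (SE 0.490, adjusted p = 0.382) over all filtered genes, and was 0.49 (SE 0.256, adjusted p = 0.272) over the background-limited genes. The ratio of Ccl4 to Ccl3 per kb was 2.39, 3.02 and 2.83 in HFD and 2.08, 1.53 and 2.43 in HFD+MGIG. These ratios overlapped only at their edges, and the difference did not pass the test (two-sided exact permutation p = 0.2, adjusted over 4 ratios 0.4).

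Ccl5 (ENSMUSG00000035042, chr11:83525778-83530518, minus strand), or RANTES, is made by T and NK cells as well as by macrophages. It had 27.5, 24.6 and 21.9 CPM in the HFD libraries and 10.6, 32.1 and 34.1 CPM in the treated ones, with the lowest and the highest values of the 6 in the treated group. On the log2 scale the fold change was -0.30 (SE 0.362, adjusted p = 0.472) over all filtered genes, and was 0.83 (SE 0.529, adjusted p = 0.369) over the background-limited genes. The 14 T and NK cell markers summed to 46.7 to 57.0 CPM under HFD and 52.1 to 117 CPM with the treatment, none of them at 0 in any library. Of these 14 markers 0 were background-limited, and the part of the background in their sums was not tested. The part of the markers' cells in the level of Ccl5 was not tested either.

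Ccl6 and Ccl9, a neighbouring pair found in rodents and abundant in myeloid cells, were the members with the highest counts. The treated libraries had more Ccl6 per Ccl9 than the HFD libraries, without passing the test. Ccl6 (ENSMUSG00000018927, chr11:83587882-83593087, minus strand) had 2273, 2175 and 2524 CPM in the HFD libraries and 3409, 1663 and 3065 CPM in the treated ones. In HFD+MGIG, 2 libraries were above every HFD library and HFD+MGIG 2 was below them all. Its log2 fold change was -0.054 (SE 0.537, adjusted p = 0.933) over all filtered genes. Over the background-limited genes Ccl6 rose by 0.88 (SE 0.134, 95% interval 0.58 to 1.19, adjusted p = 0.00961), which was the smallest p among the members.

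Ccl9 (ENSMUSG00000019122, chr11:83572919-83578636, minus strand) had 1211, 1109 and 1207 CPM in the HFD libraries and 1369, 603 and 1052 CPM in the treated ones. The HFD libraries lay close together and within the wide range of the treated ones. Its change on the log2 scale was -0.49 (SE 0.514, adjusted p = 0.407) over all filtered genes, and was 0.43 (SE 0.136, adjusted p = 0.0830) over the background-limited genes.

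A ratio of 2 genes within a library does not depend on how the library was scaled. Ccl6 was 3.18, 3.33 and 3.55 times Ccl9 per kb in HFD and 4.23, 4.68 and 4.94 times in HFD+MGIG. Every treated library was above every HFD library, and the means were 3.35 ± 0.183 and 4.61 ± 0.363 (n = 3 each), a difference of 0.46 on the log2 scale. The two-sided exact permutation p was 0.1, the smallest that 3 against 3 can give, and 0.4 after adjustment over the 4 ratios tested, which were chosen after the levels were seen. Of the 45 ratios that the 10 members form, 1 had groups that did not overlap, this one, against 37% of all pairs of background-limited genes. The counts of Ccl9 were fractional and those of Ccl6 were not, and the part of that counting in the ratio was not tested.

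**Figure D2:**
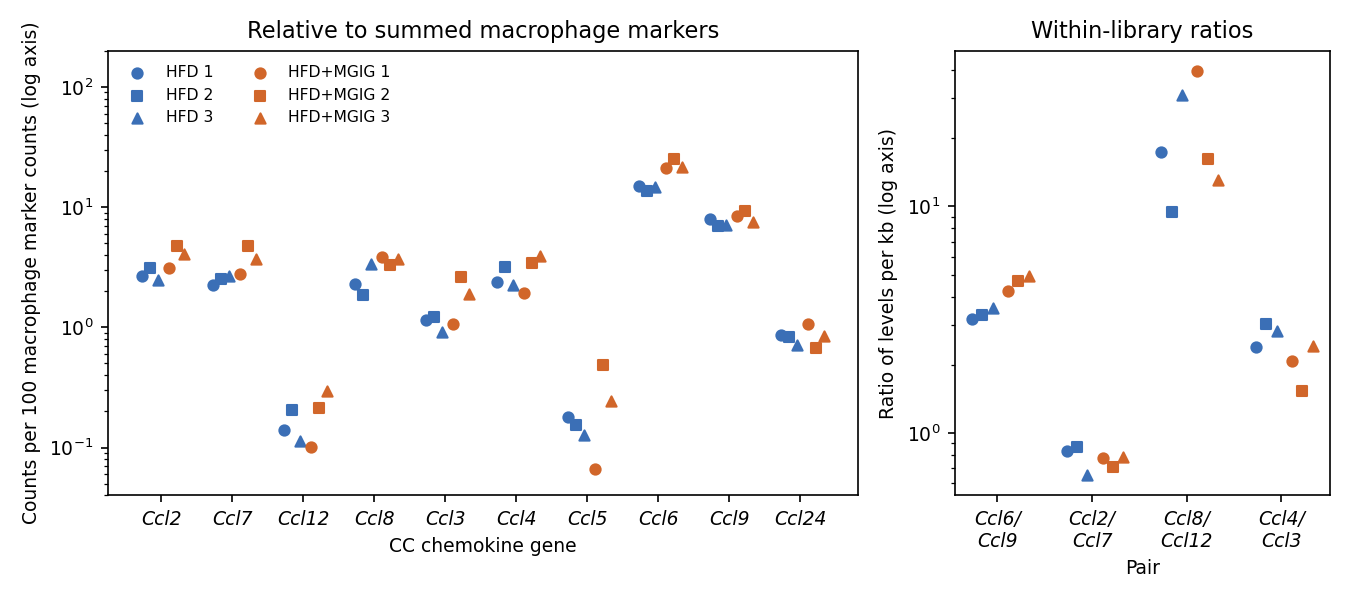
Ratios of levels per kb of exon for 4 pairs of related CC chemokines (log axis), with 1 point per library. Ccl6 over Ccl9 lies between 3.18 and 3.55 in HFD and between 4.23 and 4.94 in HFD+MGIG, while the groups overlap for the other pairs.

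The promoters of this pair are shown because the genes are close relatives and neighbours with the highest counts of the family. RefSeq promoter windows (GRCm38.p6, 250 bases before to 50 after the annotated start) were found for 5 of the 10 members, which were Ccl3, Ccl6, Ccl8, Ccl9 and Ccl12. The capitals mark exact runs of at least 10 bases that the Ccl6 and Ccl9 windows have in common, with Ccl6 at chr11:83593038-83593337 and Ccl9 at chr11:83578587-83578886, both on the minus strand.
Ccl6: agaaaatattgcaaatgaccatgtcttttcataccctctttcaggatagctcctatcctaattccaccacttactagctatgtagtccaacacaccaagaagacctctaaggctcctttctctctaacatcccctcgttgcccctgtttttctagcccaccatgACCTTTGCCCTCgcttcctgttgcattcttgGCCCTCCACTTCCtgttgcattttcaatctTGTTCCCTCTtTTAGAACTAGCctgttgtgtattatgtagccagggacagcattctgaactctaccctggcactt
Ccl9: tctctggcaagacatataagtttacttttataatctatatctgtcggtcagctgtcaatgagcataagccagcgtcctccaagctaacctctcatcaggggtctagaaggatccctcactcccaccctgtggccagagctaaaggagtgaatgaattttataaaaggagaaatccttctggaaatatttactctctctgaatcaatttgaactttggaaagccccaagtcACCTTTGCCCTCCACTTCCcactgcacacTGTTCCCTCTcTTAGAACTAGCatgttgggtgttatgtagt

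The longest common run was GCCCTCCACTTCC. It fell in a stretch of 67 aligned bases of which 59 were identical (88.06%), from -59 to 15 around the annotated start in Ccl6 and from -18 to 49 in Ccl9. The stretch thus sits at different distances from the 2 starts. The letters TATAAA, searched on both strands, were in the windows of Ccl8, Ccl9 and Ccl12 and in 13.62% of all 32851 promoter windows. The AP-1 letters TGANTCA were in the Ccl9 window and in 7.808% of all windows, and a match to the NF-kappaB motif was in the Ccl9 window and in 8.459% of all. GAGGAA, the core that PU.1 can bind, was in those of Ccl3, Ccl8 and Ccl12 and in 28.28% of all windows, and the C/EBP letters TTGCNNAA were in 0 of the 5 and in 10.8% of all. These matches describe letters in the windows and are not shown to be sites.

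Ccl24 (ENSMUSG00000004814, chr5:135569937-135573049, minus strand), or eotaxin-2, is a macrophage product that attracts eosinophils through Ccr3 and is the one member outside the chromosome 11 cluster. It had 131, 131 and 121 CPM in HFD, the tightest group of any member relative to its mean. In HFD+MGIG it had 172, 44.3 and 119 CPM, and the lowest of these, HFD+MGIG 2, rests on 98 counts. In log2 terms the change was -0.44 (SE 0.490, adjusted p = 0.437) over all filtered genes, and was 0.41 (SE 0.223, adjusted p = 0.292) over the background-limited genes.

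Across the family, the sign of the change depended on the scale. Over all filtered genes, 0 of the 10 members were called lower and 0 higher at an adjusted p of 0.05 by edgeR's quasi-likelihood test, against 17.8% of the 23053 genes called lower and 43% called higher (60.8% in either direction). No member reached an unadjusted p of 0.05 in that fit, and DESeq2 and limma voom called 0 members as well. The members' log2 fold changes lay between -0.50 and -0.054 with a median of -0.27, beside a median of 0.38 over all filtered genes and of -0.91 over the background-limited genes in the same fit. Their position below 0 was not kept under every scaling, and 7 of the 10 lay above 0 when the libraries were scaled by their totals alone.

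Over the background-limited genes, 4 of the 10 members rose, namely Ccl2, Ccl3, Ccl6 and Ccl7, against 4.49% of the 2606 genes called higher, and 0 members fell, against 6.25% called lower. On the same scale endothelial markers were called lower in 5 of 6 (median -1.14) and fibroblast markers in 3 of 6 (median -0.66), and 3 adipocyte markers had a median of -0.68 with 0 called by edgeR, 1 by DESeq2 and 1 at an unadjusted p under 0.05. How many of these markers entered the set through their HFD level was not counted. The markers' part in the members' rise was not tested. All 10 members lay above 0, as did 53.6% of the background-limited genes, and the median was 0.76 beside 0.030 for all genes of that fit. Here 6 members had an unadjusted p under 0.05. DESeq2 and voom each called 6 members on this scale, DESeq2 adding Ccl8 and Ccl9, and voom calling Ccl8, Ccl9 and Ccl24 beside Ccl2, Ccl6 and Ccl7.

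The calls, though not the signs, depended on single libraries. Without HFD 1 or without HFD 2, edgeR called 0 members, while 5 and 4 members still had an unadjusted p under 0.05, and the genes called in all dropped from 280 to 47 and 74. Without HFD 3 the members called were 3, among 109 genes. Without HFD+MGIG 3 only Ccl6 was called, and without HFD+MGIG 1 or HFD+MGIG 2 the number was 5. Of these 6 refits, Ccl6 was called in 4, Ccl7 in 3, Ccl2 in 2 and Ccl3 in 1. Across them all 10 members stayed above 0, and Ccl6 ranged from 0.83 to 0.94 with an adjusted p of at most 0.0540. Subtracting the whole background bound from each count left 0 genes and 0 members called by edgeR, with 8 members at an unadjusted p under 0.05.

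**Figure D3:**
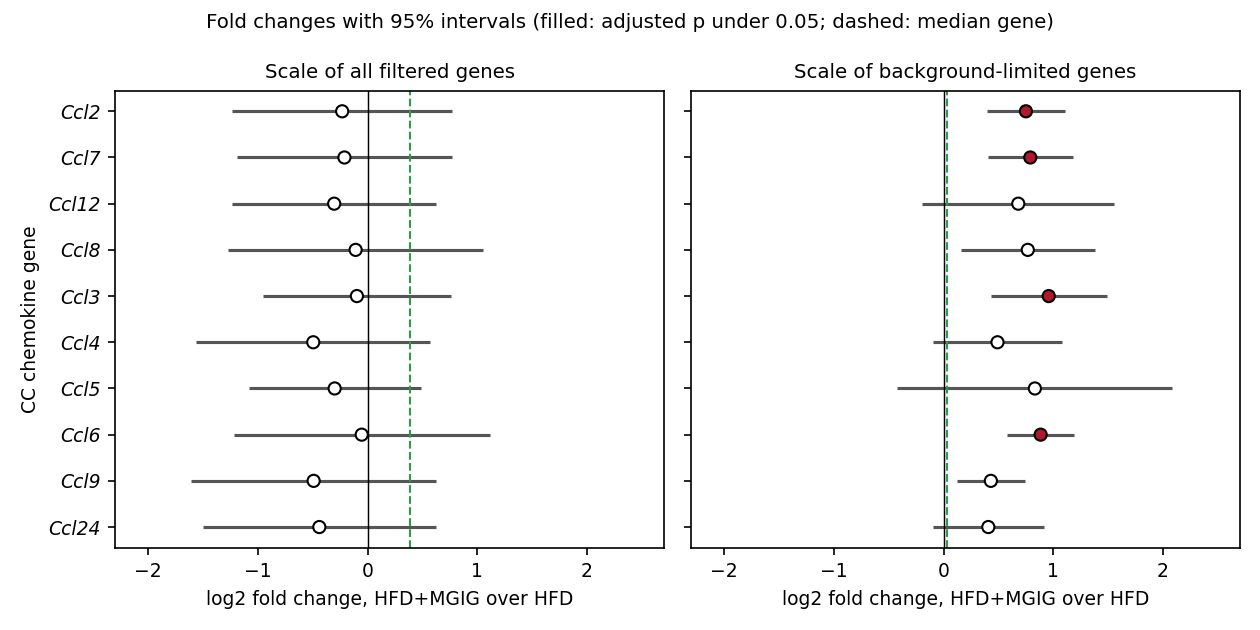
Log2 fold changes (HFD+MGIG over HFD) of the 10 members with their 95% intervals, fitted over all 23053 filtered genes or over the 2606 background-limited genes. On the first scale every member lies between -0.50 and -0.054 with an interval across 0, and on the second every member lies between 0.41 and 0.96.

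The members were also set against the macrophage markers of the same library. For every 100 counts in the 15 macrophage markers, the 10 chemokines together had 34.8, 33.8 and 34.4 counts under HFD and 43.5, 54.8 and 48.0 counts in HFD+MGIG. The HFD libraries were nearly equal and each treated library was higher, with means of 34.3 ± 0.523 and 48.8 ± 5.70 (n = 3 each), and 45.7 in the treated group without HFD+MGIG 2. Taken singly, Ccl6 and Ccl7 were the 2 of 10 members whose groups did not overlap on this measure, both higher in HFD+MGIG, against 4.87% of the background-limited genes. Ccl6 had 14.9, 13.7 and 14.7 counts per 100 marker counts in HFD and 21.1, 25.4 and 21.8 in HFD+MGIG. Ccl7 had 2.26, 2.52 and 2.69 in HFD and 2.80, 4.73 and 3.70 in HFD+MGIG. For both genes, the two-sided exact permutation p was 0.1, the smallest possible with 3 against 3. When the fit over all filtered genes was scaled to the same markers, 1 member was called higher, Ccl6, by 0.66 (SE 0.119, adjusted p = 0.00863). In that fit 43.1% of genes were called higher, 3.21% lower and 46.3% in either direction. Its median log2 fold change was 1.39 over all filtered genes and 0.53 over the members, so Ccl6 lay below the median gene. On the 2 scales used before, the macrophage markers had a median log2 fold change of -0.74 over all filtered genes and 0.13 over the 12 that were background-limited. Of the 15 markers, edgeR called 0 in either direction. At an unadjusted p under 0.05 there were 2 of them over all filtered genes and 3 over the background-limited genes, and DESeq2 called 5 and 2 and voom 7 and 3. In all, DESeq2 called 20382 and 415 genes in these fits, and voom 17653 and 466.

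Within the family, no member's share of the summed level passed the test between groups. Ccl6 made up 29.5% ± 1.41 of the members' summed level per kb in HFD and 32.5% ± 2.31 in HFD+MGIG. Ccl9 had 8.82% ± 0.810 and 7.11% ± 1.08, and Ccl4 had 14.4% ± 3.03 and 11.8% ± 3.18. The shares of Ccl2, at 8.91% and 8.89%, and of Ccl7, at 11.4% and 11.8%, were close to equal. The groups overlapped for all 10 shares, and the smallest p, that of Ccl6 and Ccl9, was 0.2 (two-sided exact permutation test, n = 3 each).

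**Figure D4:**
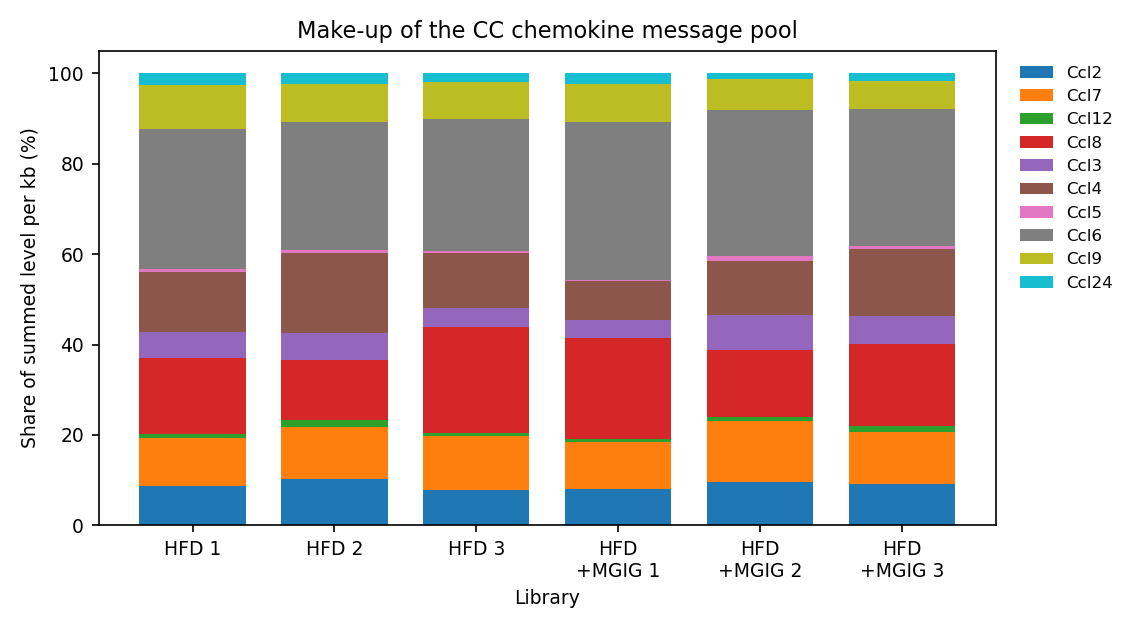
Share of each member in the summed level per kb of exon of the 10 CC chemokines, in percent, as 1 stacked bar per library. Ccl6 holds the largest part in every library, with a mean of 29.5% in HFD and 32.5% in HFD+MGIG.

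Of 11 other CC chemokines, 9 were tested over all filtered genes. Of these, 4 were called lower and 2 higher, beside 17.8% and 43% of all filtered genes. Ccl11, the eotaxin that fibroblasts are known to make, fell from 132, 144 and 91.9 CPM to 62.2, 62.3 and 68.3 CPM. Every treated library was below every HFD library, as for 68% of the background-limited genes. The log2 fold change of Ccl11 was -1.25 (SE 0.349, adjusted p = 0.00836, and 0.0512 without HFD 2), but -0.19 (adjusted p = 0.671) over the background-limited genes. Fibroblast markers moved the same way, with 7 of 10 called lower and summed levels of 2678 to 4107 CPM under HFD and 1337 to 2033 CPM with the treatment, and their part in the level of Ccl11 was not tested. Ccl21a, a ligand of Ccr7 made by stromal and lymphatic cells, fell by 1.82 (adjusted p = 0.00958), and Ccl22, a ligand of Ccr4, fell by 0.90 (adjusted p = 0.0472), a call lost in 4 of the 6 refits that each leave out 1 library, all but those without HFD 2 and without HFD+MGIG 3 (adjusted p up to 0.155). Neither was called by edgeR over the background-limited genes, where Ccl21a had -0.73 and Ccl22 had 0.22. On that scale voom called Ccl21a lower (-1.94, adjusted p = 0.0137). For Ccl21a the CPM groups overlapped, the treated mean was 1.22 times its bound with the lowest library at 0.461 times, and the call was lost with library totals (adjusted p = 0.0655), the 5 CPM filter (0.119) and thinned counts (0.133). Ccl19, named after its values were seen, was the fourth called lower. Ccl25, a ligand of Ccr9, had means of 5.003 and 11.1 CPM, the treated one below its bound of 47.7 CPM, and overlaps exons of Elavl1. Its log2 fold change of 0.81 did not pass the test (adjusted p = 0.0906) but did with library totals (0.0340) and voom (0.00336). Ccl28 had 0.245 CPM under HFD and 12.3 CPM with the treatment, below its bound of 31.0 CPM, and Ccl20, the other one called higher and named after its values were seen, was below its bound too.

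Receptors of CC chemokines were called in both directions. Of 14 receptors tested out of 15, 3 were called lower and 4 higher over all filtered genes, beside 17.8% and 43% of those genes. Of the 5 background-limited receptors, 0 were called in either direction by edgeR, DESeq2 or voom, and 0 had an unadjusted p under 0.05. Ccr1, a receptor of Ccl3, Ccl5, Ccl6 and Ccl9, had 144, 191 and 331 CPM in the HFD libraries and 337, 92.6 and 326 CPM in the treated ones. The groups overlapped, and the log2 fold change was -0.083 (adjusted p = 0.902) over all filtered genes, and was 0.77 (adjusted p = 0.257) over the background-limited genes. Ccr2, the receptor of Ccl2, Ccl7 and Ccl12, had 213, 238 and 242 CPM in the HFD libraries and 184, 100.3 and 179 CPM in the treated ones. Its groups did not overlap in CPM, as was the case with a lower treated level for 68% of the background-limited genes, Ccr2 among them. The share was 23.7% of all filtered genes. The log2 fold change of Ccr2 did not pass the edgeR test on either scale (-0.86, adjusted p = 0.0944, and 0.096, adjusted p = 0.653). Over all filtered genes Ccr2 was called lower by DESeq2 (adjusted p = 0.0268), by voom (0.00906) and by edgeR without HFD+MGIG 2 (0.0190).

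Ccrl2, which binds chemerin rather than signalling for CC chemokines, had 301 ± 16.2 and 172 ± 80.6 CPM (log2 fold change -1.09, adjusted p = 0.0656 by edgeR). It was called lower by DESeq2 (0.0166), voom (0.0233) and edgeR without HFD+MGIG 2 (0.00697). Ccr7, the receptor of Ccl19 and Ccl21a, fell by 1.42 (adjusted p = 0.00528), with -0.25 (adjusted p = 0.789) over the background-limited genes. Ackr1, a decoy receptor of venular endothelium and red cells, fell by 1.28 (adjusted p = 0.0104), with -0.28 (adjusted p = 0.427) over the background-limited genes, and shares exon sequence with Cadm3. Endothelial markers were lower beside it, with 9 of 10 called lower against 17.8% of all filtered genes. They summed to 1967 to 2363 CPM under HFD and 419 to 771 CPM with the treatment, and their part in the level of Ackr1 was not tested. Ccr9 had 3.42 CPM under HFD and 32.6 CPM with the treatment, below its bound of 65.7 CPM. The other 3 receptors called higher, Ccr4, Ccr8 and Ccr1l1, were named after their values were seen and also lay below their bounds in HFD+MGIG.

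Of 20 G protein, arrestin, kinase and Rac pathway genes that carry the receptors' signal, 12 were called lower and 0 higher over all filtered genes, beside 17.8% of those genes called lower. Their median was -1.09, beside -0.91 for the background-limited genes in that fit. Over the background-limited genes edgeR called 0 of 11, DESeq2 1 and voom 0, with 2 at an unadjusted p under 0.05 and a median of -0.20. The 2 with the smallest p, the phospholipase gene Plcb3 (log2 fold change -1.35, adjusted p = 0.00469) and the kinase gene Ptk2b (-1.31, adjusted p = 0.00511), had treated means below their bounds.

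The list on CC chemokine induction held 24 genes, among them cytokines, Toll-like receptors and NF-kappaB subunits, and also the NF-kappaB inhibitors Nfkbia and Tnfaip3. Over all filtered genes edgeR called 8 lower, Tnfaip3 among them, and 0 higher, beside 17.8% of those genes called lower by edgeR. DESeq2 called 18 of the list and voom 21, in fits that called 20382 and 17653 genes in all, against 14011 by edgeR. The median was -0.98, beside -0.91 for the background-limited genes in that fit. Hif1a, the oxygen-regulated transcription factor subunit, had 316, 393 and 407 CPM in the HFD libraries and 170, 82.2 and 149 CPM in the treated ones. Every treated library was below every HFD library, as for 68% of the background-limited genes. Hif1a fell on both scales, by 1.76 (SE 0.470, adjusted p = 0.00649) and by 0.81 (SE 0.142, adjusted p = 0.0127, and 0.0589 without HFD 2). The treated mean was 3.54 times its bound and the lowest library 1.48 times, so Hif1a met the background-limited criterion through its HFD level, and with the bound subtracted its adjusted p was 0.173. Of 13 genes of the list that were background-limited, edgeR called Hif1a alone, beside 6.25% of all background-limited genes called lower. DESeq2 called 2 of the 13 and voom 3. The cytokine gene Il6 had 464, 439 and 336 CPM in the HFD libraries and 211, 154 and 197 CPM in the treated ones. Over all filtered genes Il6 fell by 1.44 (adjusted p = 0.0122, and 0.0606 without HFD+MGIG 3), and its -0.42 over the background-limited genes did not pass the test (adjusted p = 0.195).

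Of 8 genes that act on chemokine mRNA stability or trim chemokine proteins, 5 were called lower and 0 higher over all filtered genes, beside 17.8% called lower. Over the background-limited genes 2 of 4 were called lower, beside 6.25% of those genes. The list holds Elavl1, a stabiliser of AU-rich mRNAs, which was not called. Zc3h12a, an RNase also known as Regnase-1 that cleaves inflammatory mRNAs, had 57.8, 66.8 and 61.2 CPM in the HFD libraries and 18.3, 7.23 and 30.2 CPM in the treated ones. It fell by 1.98 (SE 0.443, adjusted p = 0.00214) and by 1.06 over the background-limited genes (adjusted p = 0.0479), although its treated mean of 18.6 CPM was at its bound of 18.5 CPM and its lowest library at 0.267 times, so that it was background-limited through its HFD level. The latter call was lost in 5 of the 6 refits, all but the one without HFD+MGIG 3, with an adjusted p of up to 0.142. Zfp36l2, which promotes decay of AU-rich mRNAs and was named after its values were seen, fell by 1.55 and by 0.65 on the 2 scales (adjusted p = 0.0169 and 0.0336). Khsrp, another factor of AU-rich decay, fell by 1.29 (adjusted p = 0.0105) with a treated mean below its bound.

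**Figure D5:**
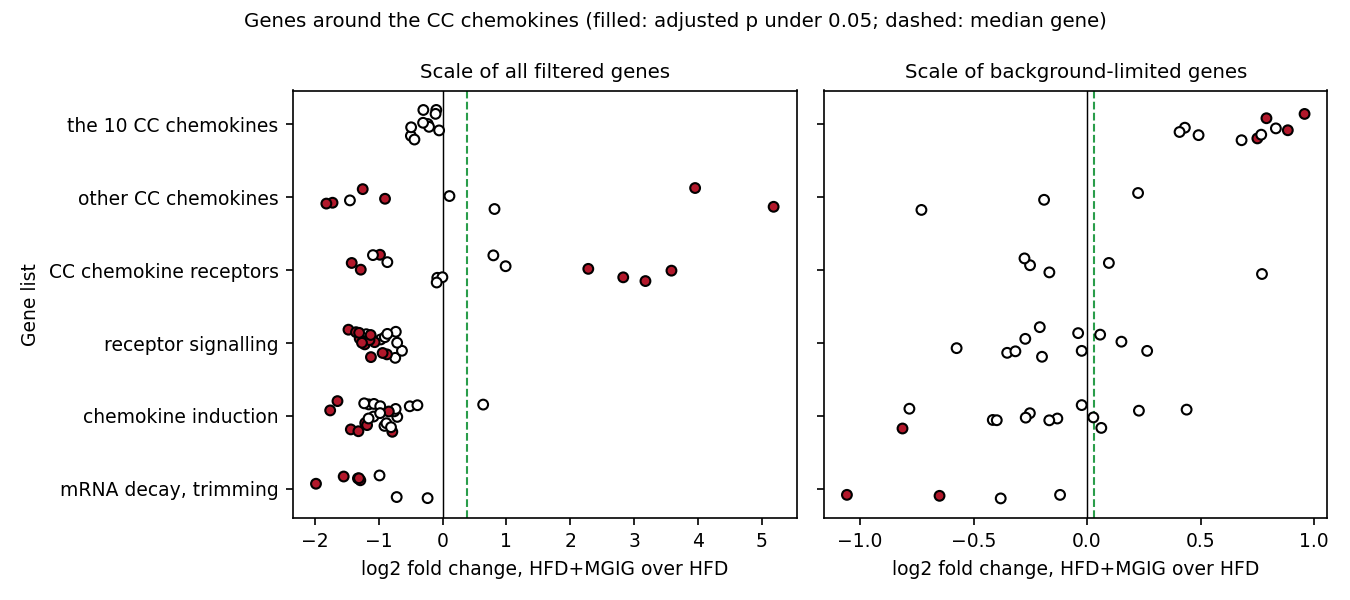
Log2 fold changes (HFD+MGIG over HFD) of the members and of 5 lists of related genes fitted over all filtered genes or over the background-limited genes, with 1 point per gene. The members' median is -0.27 and 0.76 on the 2 scales, and that of the signalling genes is -1.09 and -0.20.

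The genes nearest to Ccl6 in pattern over the 6 libraries, among 3377 protein-coding genes with a mean of at least 50 CPM, included Ugt1a7c at rank 2 and Ms4a6c at rank 3, with root mean square distances of 0.104 and 0.115 in centred log2 CPM. Of the other members, Ccl7 was the nearest, at rank 17 with a distance of 0.179, and Ccl2 was at rank 25 with 0.191. Ccl9, its neighbour on the chromosome, was at rank 72, and Ccl8 was at rank 137. Ccl3, Ccl24 and Ccl4 were farther away, at ranks 445, 845 and 1001. All 6 libraries and their depths enter each distance, which describes likeness of pattern alone.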

How the data were processed

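RNA was sequenced from 3 HFD and 3 HFD+MGIG libraries, made with a SMART-Seq v4 kit from 10 ng of total RNA extracted with TRIzol, per the labels' protocols. The table that the authors deposited holds estimated counts, some of them fractional, with 1 row per gene. Per the submitters' processing notes, fastp, HISAT2, StringTie and the build mm10 were used. For versions, counting program and strand, nothing is given in the sources used here.

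Counts were rounded, and 0 columns were left unused. CPM values are relative to library totals, and ± is the SD over 3 libraries. GENCODE M21 supplied symbols, positions and exon lengths, and held 51933 of the 57180 IDs. Total counts of 2214367 to 16740374 set the precision. Groups were compared with the quasi-likelihood test of edgeR 4.0.16 in R 4.3.3 (TMM factors, filterByExpr by group, no covariate, 6 libraries). The threshold was 0.05 after Benjamini-Hochberg adjustment, and adjusted p-values come from it unless another test is named. Background-limited genes were protein-coding, had at least 2 exon blocks and lay outside the silent families, with a bound of at most 0.25 of the mean level. Bound and level were means over all 6 libraries. Shares and ratios were compared by exact permutation over libraries. Alternatives were DESeq2 1.42.0, limma 3.58.1 voom with sample quality weights, other scalings and filters, thinning, a block for the replicate number, and refits that leave out single libraries. The edgeR, DESeq2 and voom fits were tested on counts simulated from HFD proportions at the totals of the 6 libraries. That simulation held no added background, so it does not test the fits under the background of HFD+MGIG.

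The text names all members. From the lists of other CC chemokines and receptors it names the 4 with the highest mean CPM, and up to 2 per direction past the threshold with the smallest p and at least 10 CPM. From the other lists it names up to 2 per direction. The members and lists were chosen with earlier results of these data known. Scaling to macrophage markers and the alternatives on the background-limited scale were added after seeing the data. Results that need items withheld here are not reported.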

Additional observations from a re-analysis of the deposited data

How the results depend on the processing

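The main limits are 3 libraries a group and a depth and background that move with the treatment. In these alternatives the number of members called lower was 0 on both scales. Over all filtered genes 14011 genes were called, against 23169 with no low-count filter, 6153 with a minimum of 5 CPM in 3 libraries, 6252 with counts thinned to the shallowest library and 280 in the background-limited genes alone. Members called higher were 0 over all filtered genes, 4 in the background-limited genes alone, 5 with the scaling factors of those genes applied to all filtered genes, and 1 when scaled to macrophage markers. Over all filtered genes, the median log2 fold change was 1.55 with those factors and 1.39 with the marker scaling. The members' medians were 0.76 and 0.53. The cause of these shifts was not tested.

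The following log2 fold changes lay above 0 in place of below 0. With DESeq2's size factors they were Ccl3 0.040, Ccl6 0.056 and Ccr1 0.013. With library totals they were Ccl2 0.083, Ccl3 0.24, Ccl5 0.067, Ccl6 0.24, Ccl7 0.11, Ccl8 0.17, Ccl12 0.028 and Ccr1 0.20. With the minimum of 5 CPM they were Ccl2 0.15, Ccl3 0.31, Ccl5 0.14, Ccl6 0.32, Ccl7 0.18, Ccl8 0.25, Ccl12 0.093 and Ccr1 0.27. With voom and sample weights they were Ccl2 0.038, Ccl3 0.23, Ccl5 0.020, Ccl6 0.096, Ccl7 0.0038, Ccl8 0.053, Ccl12 0.34 and Ccr1 0.18. With thinned counts they were Ccl2 0.18, Ccl3 0.31, Ccl5 0.090, Ccl6 0.36, Ccl7 0.14, Ccl8 0.31 and Ccr1 0.31. Scaled to macrophage markers they were Ccl2 0.53, Ccl3 0.76, Ccl4 0.26, Ccl5 0.74, Ccl6 0.66, Ccl7 0.58, Ccl8 0.53, Ccl9 0.20, Ccl12 0.42, Ccl24 0.12, Ccl22 0.13 and Ccr1 0.51. With the background-limited factors on all filtered genes they were Ccl2 0.75, Ccl3 0.96, Ccl4 0.49, Ccl5 0.90, Ccl6 0.88, Ccl7 0.79, Ccl8 0.77, Ccl9 0.43, Ccl12 0.67, Ccl24 0.39, Ccl22 0.28, Ccr1 0.76 and Ccr2 0.096. In the background-limited genes alone they were Ccl2 0.75, Ccl3 0.96, Ccl4 0.49, Ccl5 0.83, Ccl6 0.88, Ccl7 0.79, Ccl8 0.77, Ccl9 0.43, Ccl12 0.68, Ccl24 0.41, Ccl22 0.22, Ccr1 0.77 and Ccr2 0.096.

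With each library left out in turn, log2 fold changes over all filtered genes ranged from -0.38 to 0.021 for Ccl2, -0.30 to 0.056 for Ccl3, -0.60 to 0.030 for Ccl5, -0.33 to 0.23 for Ccl6, -0.39 to 0.014 for Ccl7, -0.49 to 0.24 for Ccl8 and -0.40 to 0.32 for Ccr1. On the background-limited scale these refits called 47 to 346 genes and 0 to 5 members, and gave -0.46 to 0.0045 for Ccl11, -0.25 to 0.67 for Ccl22 and -0.89 to 0.18 for Ccr7. On that scale voom called 466 genes and gave Ccl22 -0.086. Subtracting the background bound left 0 genes and 0 members called, and gave Ccl11 0.29, Ccrl2 0.12, Ccr2 -0.033, Ackr1 0.092, Ccr7 0.14 and Il6 0.034.

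With the replicate number as a replicate block, 14139 genes and 0 members were called over all filtered genes, and 214 genes and 5 members on the background-limited scale. The deviations of same-numbered libraries correlated at 0.086, 0.27 and 0.091, and HFD 1 and HFD 3 did not correlate best with their own number. The labels do not say what the number stands for. Correlations this weak, from 3 libraries a group, cannot show whether same-numbered libraries were paired.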
